A study of Bos taurus with 12 samples.

Results

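Described here are 24 CpG positions in bovine dermal fibroblast DNA at which the methylation ratio differed between animals and was held by each animal from 5 to 16 months of age. The ratio is the share of reads at 1 position and strand that still read C after bisulfite treatment, from 0 to 1. A position was kept if it lay on an autosome, had at least 10 reads in all 12 cultures, had a standard deviation (SD) of 0.20 or more among the 6 animal averages, and had young and old ratios within 0.20 of each other in every animal. Of 838705 positions in the table, 265107 were autosomal with the required reads, and 24 of these (0.00905%) met the rule. Because the measured ratios chose the members, their spread between animals and their constancy within animals are given as description and carry no test.

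The reduced representation bisulfite sequencing (RRBS) libraries came from primary dermal fibroblasts of 6 Holstein heifers. From each heifer came a young culture, taken at 5 months and written here with the letter A (1A, 2A and so on), and an old culture, taken at 16 months and written with the letter B, all at passage 6 and none treated before DNA was taken. The methods state that the heifers were chosen from the middle of a larger herd group ranked by the fibroblast response to lipopolysaccharide (LPS). The animals are therefore not a random draw of the breed, and 1 culture stands for each animal at each age.

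Cytosines followed by guanine are the main site of DNA methylation in mammals, and both strands of a CpG normally carry the same mark after replication. Bisulfite turns unmethylated cytosine into a base read as T, so a CpG that is lost to a C-to-T difference in an animal's own DNA also reads as unmethylated. Such an inherited difference gives levels set by the number of intact copies and stays with the animal for life. Inherited sequence can also set the methylation of intact CpGs nearby, and a methylation level of any origin can be carried through cell division. RRBS reads begin and end at restriction sites, so DNA differences at those sites can change how many reads a position receives. Sequence of these animals was not analysed here. The ratio of a strand taken alone does not tell a C-to-T difference from an unmethylated CpG. Ratios of the other strand of the same CpG are given below, and whether a C-to-T difference was present at a member was not tested.

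The 12 libraries held between 19007741 and 31643295 reads summed over the table's positions. The cultures of animals 2 and 6 did not resemble each other by number. At 155 positions with at least 20 and under 300 reads in every culture and an SD over cultures of at least 0.15, the Pearson correlation across positions was 0.647 between 1A and 1B, 0.689 between 5A and 5B and 0.557 between 3A and 3B, but 0.120 between 6A and 6B. Culture 6B correlated with 3A at 0.511 and with 3B at 0.489. The correlation of 2A with 2B was -0.0222, with no other culture above 0 for 2A or 2B, and that of 4A with 4B was 0.240. These positions fell into 131 loci and included 2 of the members, and the comparison was added after the data were seen. Why 6B resembled the cultures of animal 3 was not tested, and results that rest on the pairing are given without animals 2, 3 and 6 in turn.

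When each young culture was set against the old culture of another animal, by shifting the animal number by 1 to 5 places, the same rule kept 7, 7, 7, 10 and 11 positions, against 24 for the true pairs. None of the members (0) was among the positions kept by a shifted pairing. The rule leaves little room for such overlap, since members differ between animals, so nothing is read from it. Both conditions of the rule moved. An SD of 0.20 or more was reached at 371 positions with true pairs and at 194 to 254 with shifted pairs, which average the ratios of 2 animals. Every difference was within 0.20 at 222358 positions with true pairs (83.9%) and at 217413 to 219618 with shifted pairs. The excess of true pairs was also seen with looser limits. The count was 211 against 84 to 111 with an SD of 0.15, 52 against 14 to 24 with differences up to 0.25, and 215 against 76 to 104 with 5 reads. With the reads of both strands of a CpG added together it was 12 against 0 to 3, and these 12 CpGs included those of 1a and 29c. Without animal 6 the rule kept 90 positions, against at most 22 with shifted pairs, without animal 3 it kept 59, against at most 40, and without animal 2 it kept 81, against at most 30. The shifted counts show that a part of a list of this length is reached with cultures of different animals, and which of the 24 belong to that part cannot be read from the counts.

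**Figure D1:**
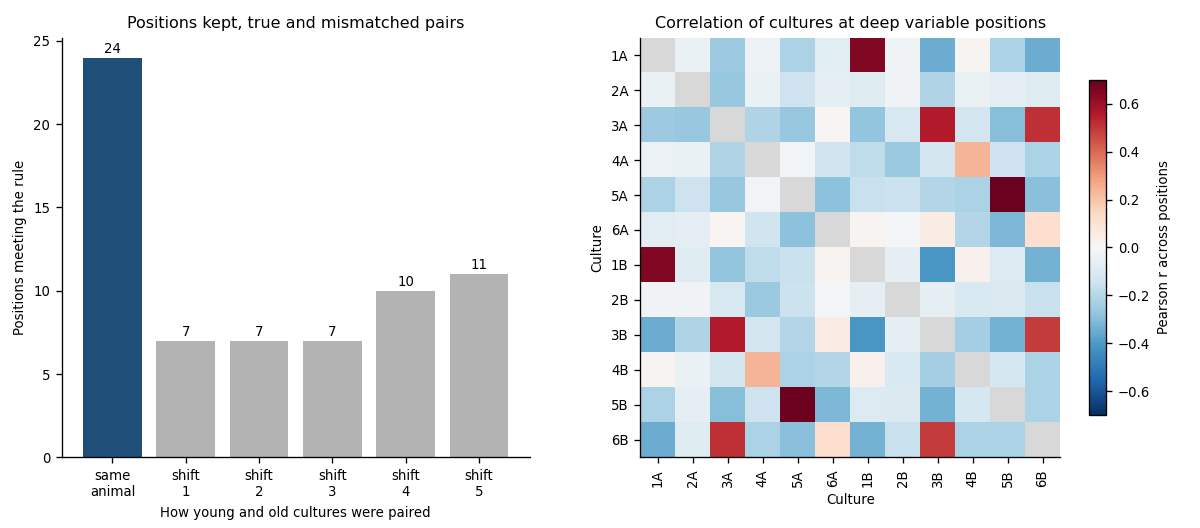
Left, the number of positions that met the rule when young and old cultures were paired by animal (24) or with the animal number shifted by 1 to 5 (7, 7, 7, 10 and 11); bars start at 0. Right, Pearson correlation across 155 deeply read variable positions between each 2 of the 12 cultures (A young, B old; grey diagonal left blank), where the squares of 1A with 1B and 5A with 5B are dark and 6B is closer to 3A and 3B than to 6A.

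The sampling of reads sets how finely these ratios can be read. The mean coverage of a member over cultures ran from 16.3 to 194 reads with a median of 21.3, near the 24.8 of all positions with the required reads. In 20 of the 24 members the lowest culture had between 10 and 14 reads, and only 8a and 29b had 20 or more in every culture. At 20 reads and a ratio of 0.5, the binomial SD of the difference between cultures is 0.158, so the limit of 0.20 lies close to counting error at most members. Reads from mates that overlapped were counted separately by the authors, and at 6 members the coverage of every culture was even (25%, against 19.6% of positions with the required reads). At such positions the number of independent molecules may be lower than the reads.

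The SD among animals ran from 0.204 to 0.308 with a median of 0.222, where the median of all positions with the required reads was 0.0283 and the 99th percentile 0.143. Just inside the limit lay 21a (0.2041) and 21b (0.2052). Just outside it, with all animals within 0.20, lay position 37577290 of chromosome 27 (0.1999) and position 144116503 of chromosome 1 (0.1996). The first of these read 0.365 and 0.425 in animals 1 and 4 and at most 0.025 in the other animals. The boundary therefore cuts through a continuum, with 17 stable positions at an SD of 0.19 to 0.20 and 4 members at 0.20 to 0.21. Over the 144 pairs of young and old ratios at the members, the median difference within an animal was 0.0750, and between a young culture and the old cultures of other animals it was 0.25.

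The members had been proposed as genotype-like, that is with levels near 0, 0.5 and 1, and the values did not bear this out for the set. Of the 144 animal averages, 96 (66.7%, 95% Wilson interval 58.6 to 73.8, counting error only) lay within 0.15 of 0, 0.5 or 1, bands that cover 60.0% of the scale. Within 0.10 it was 47.9%, where the bands cover 40.0%. At the 347 variable positions that did not hold within animals, 60.0% of averages lay within 0.15 (57.9 to 62.1). Both intervals take the averages as independent, although the same 6 animals recur at every position. The averages near the levels were 34 up to 0.15, 46 from 0.35 to 0.65 and 16 from 0.85 up. A further 31 averages lay between 0.15 and 0.35 and 17 between 0.65 and 0.85. Only at 1a and 9b were all 6 animals within 0.15 of a level, and no member (0) had both an animal near 0 and an animal near 1. The members are therefore called here by what the rule measured, positions held within animals, and not by genotype.

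**Figure D2:**
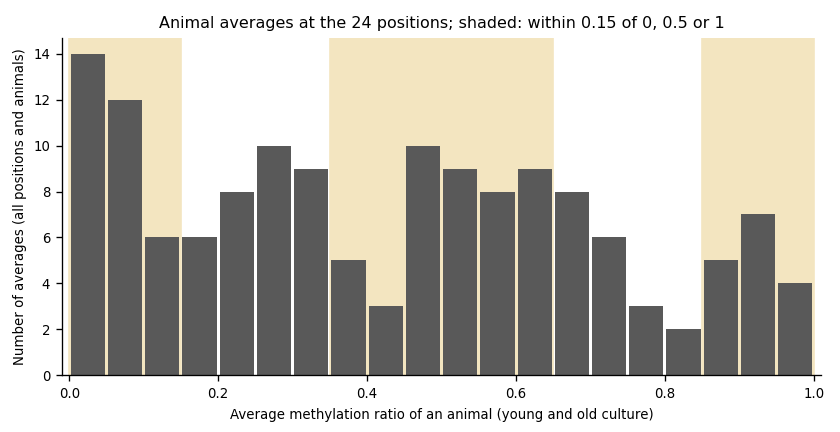
Number of animal averages (vertical axis) by methylation ratio (horizontal axis, steps of 0.05) for the 144 averages of 24 positions and 6 animals. The shaded bands within 0.15 of 0, 0.5 and 1 held 96 averages, and the gaps between them held 31 and 17.

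In the following, members carry the number of their chromosome and a letter, positions are on bosTau8, and animal values are averages of the young and old culture. At 3 members a single animal stood apart by 0.47 or more and the other 5 were close together. At 5d (chromosome 5, position 120944180, minus strand), animal 4 read 0.17 young and 0.25 old, while the other cultures read 0.85 to 1.00. At 29c (chromosome 29, position 46591455, minus strand) the same animal was the high one, with 0.86 young and 0.81 old against 0.06 to 0.20 in the other 10 cultures. At 8a (chromosome 8, position 24923539, minus strand), animal 1 read 0.25 young and 0.40 old, and the other cultures 0.73 to 0.92. No culture of the remaining animals overlapped with the animal that stood apart at these positions. Without that animal the SD fell to 0.0317 at 5d, 0.0399 at 29c and 0.0444 at 8a, so these 3 members rest on 1 heifer each.

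Other members split the animals into blocks. Position 1a (chromosome 1, position 144075818, plus strand) had the largest SD, 0.308. There animals 1, 3 and 6 averaged 0.640, 0.610 and 0.575, and animals 2, 4 and 5 averaged 0.0900, 0.0600 and 0. At 9b (chromosome 9, position 102759241, plus strand) animals 4 and 5 averaged 0.565 and 0.450 and the others 0.880 to 0.970. These are the members whose animals all sat near a level, at about 0 and 0.5 for 1a and at about 0.5 and 1 for 9b.

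At 17a (chromosome 17, position 46818449, minus strand), animals 4 and 5 read 0.00 in all 4 of their cultures, and animals 3 and 6 averaged 0.490 and 0.50. Animals 1 and 2 lay between them at 0.21 and 0.305. At 3a (chromosome 3, position 23788702, plus strand), animals 2 and 4 averaged 0.225 and 0.270 and the others 0.60 to 0.785. At 9a (chromosome 9, position 53619652, minus strand), animals 1 and 5 averaged 0.285 and 0.340 and the others 0.65 to 0.735. The lower and upper blocks did not overlap at 3a or 9a, but the lower blocks, at 0.225 to 0.340, lay between the levels of 0 and 0.5.

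Animals 1 and 5 were the high ones at 3b, 21a and 5b, which read low in the other animals. They averaged 0.460 and 0.450 at 3b (chromosome 3, position 82727322, minus strand), where the others averaged 0 to 0.21. At 21a (chromosome 21, position 26061108, plus strand) they averaged 0.455 and 0.520, and the others 0.0450 to 0.20. At 5b (chromosome 5, position 119068859, minus strand) they averaged 0.60 and 0.305, and the others 0 to 0.125. With 9a, where they were the low ones, the same pair of animals was thus apart at 4 members on 4 chromosomes.

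A further group read low in most animals and higher in 1 or more. At 25a (chromosome 25, position 32463032, plus strand) animals 4 and 5 averaged 0.540 and 0.305, and the others 0.0250 to 0.0450. Position 26a (chromosome 26, position 16778271, minus strand) ran from 0 in animal 3 to 0.540 in animal 2, with animals 1 and 4 at 0.335 and 0.360. At 21b (chromosome 21, position 59563935, minus strand) the averages rose in steps from 0 in animal 1 to 0.525 in animal 5, with no step over 0.135. The first of these shows raised animals over a near-unmethylated floor, and 21b shows a gradient.

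The remaining members were graded over the middle of the scale. Those on the plus strand were 5a (chromosome 5, position 105507890; averages 0.0700 to 0.665), 5c (chromosome 5, position 119617555; 0.15 to 0.680), 14a (chromosome 14, position 68031997; 0.0550 to 0.710) and 29b (chromosome 29, position 19414838; 0.10 to 0.695). Those on the minus strand were 7a (chromosome 7, position 71647529; 0.225 to 0.840), 8b (chromosome 8, position 75857013; 0.280 to 0.930), 9c (chromosome 9, position 103597222; 0.155 to 0.880), 27a (chromosome 27, position 4839097; 0.120 to 0.755), 27b (chromosome 27, position 4839119; 0.25 to 0.930) and 29a (chromosome 29, position 1354382; 0.10 to 0.660). Of these, 7a was the most closely repeated. Its young ratios from animal 1 to animal 6 were 0.31, 0.57, 0.75, 0.23, 0.54 and 0.85, and its old ratios were 0.31, 0.57, 0.62, 0.22, 0.49 and 0.83. The 6 animals of 7a thus kept their order at both ages, at coverages of 13 to 65 reads.

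Over all members, the largest gap between neighbouring animal averages was 0.25 or more at 14 and 0.30 or more at 8. With a gap of 0.25, 1 animal stood apart at 7 members, above the others at 5 and below at 2. Animal 4 was the highest at 8 members and the lowest at 6, and animal 1 the lowest at 7. The extremes were thus unevenly shared, although the mean ratio of an animal over the members ranged only from 0.395 to 0.453. The SD stayed at 0.20 or more at 15 members without animal 4, at 16 without animal 1 and at 23 without animal 3.

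**Figure D3:**
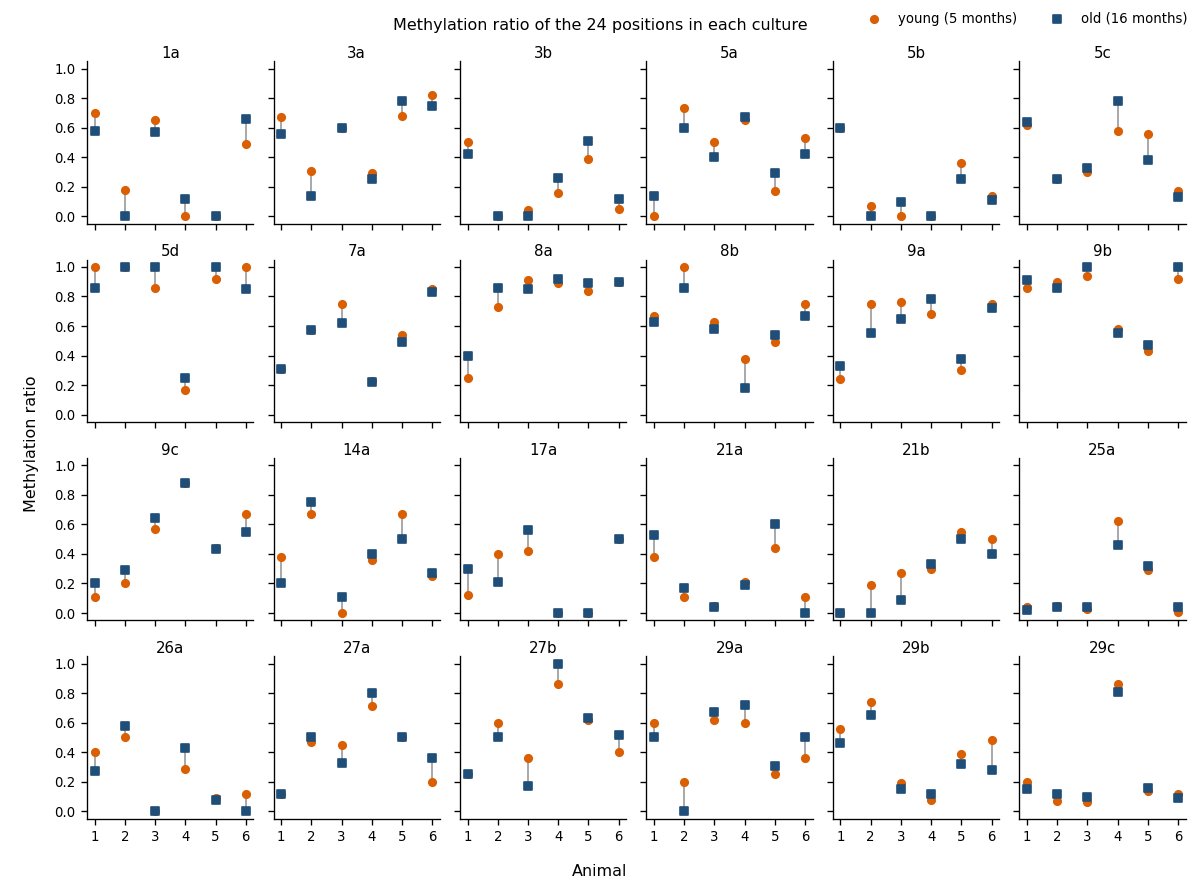
Methylation ratio (vertical axis, 0 to 1) of the young culture (circle) and old culture (square) of each of 6 animals (horizontal axis) at the 24 positions, 1 panel each; grey lines join the cultures of an animal. The circles and squares of an animal lie within 0.20 by the rule, with animal 4 apart at 5d and 29c, animal 1 apart at 8a, and graded levels at 7a, 9c and 21b.

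The opposite strand of the same CpG was not used in choosing a member, unless it met the rule itself, and none (0) did. It was in the table for 18 members, with at least 10 reads in every culture at 11. At 29b the strands were alike in every animal, with a mean difference of 0.0242 and a partner running from 0.110 to 0.710. The partner of 17a also read 0 in animals 4 and 5 and 0.625 in animal 6, with a mean difference of 0.0525. The partner of 8a was lowest in animal 1 as well, at 0.510 against 0.820 to 0.910 in the others. At these 3 CpGs both strands thus carried the differences between animals in their averages, although the partner differed between the ages of 1 animal by up to 0.55 at 17a and 0.32 at 29b.

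At other members the difference was on 1 strand only. The partner of 29c averaged 0.805 to 0.935 in all 6 animals, including the 5 in which 29c itself averaged 0.0800 to 0.175. At 21a the partner averaged 0.805 to 0.905, while 21a averaged 0.0450 to 0.520. The partner of 1a averaged 0 to 0.0450 in all animals, also in the 3 in which 1a averaged 0.575 or more. The partner of 7a averaged 0.825 to 0.870. The strands of 1 CpG differed by 0.628 on average at 29c, 0.639 at 21a and 0.318 at 1a and 7a. A 5th partner with an SD under 0.10, that of 25a, averaged 0.235 in animal 5 and at most 0.0800 in the others, animal 4 among them, in which 25a itself averaged 0.540. Of the 18 partners, 5 had an SD of 0.20 or more (5c, 17a, 21b, 27b and 29b) and 5 an SD under 0.10.

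Agreement between strands was tested as the median, over CpGs, of the Pearson correlation across the 6 animals between member and partner averages, against all 720 orders of the animals. For the 7 partners of plus-strand members, chosen for the test because the minus strand had no part in them, the median was 0.395, with 6 of 7 above 0 (exact permutation test, two-sided, p = 0.0917). For the 11 partners of minus-strand members it was 0.593, with 11 of 11 above 0 (exact permutation test, two-sided, p = 0.00556). For all 18, a set added after the data were seen, it was 0.520 with 17 of 18 above 0 (exact permutation test, two-sided, p = 0.00278). The plus-strand result alone did not pass 0.05. Without animal 6 it was 0.438 (exact permutation p = 0.208), without animal 3 0.482 (exact permutation p = 0.0917), and without animal 2 it was 0.484 (exact permutation p = 0.0417).

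**Figure D4:**
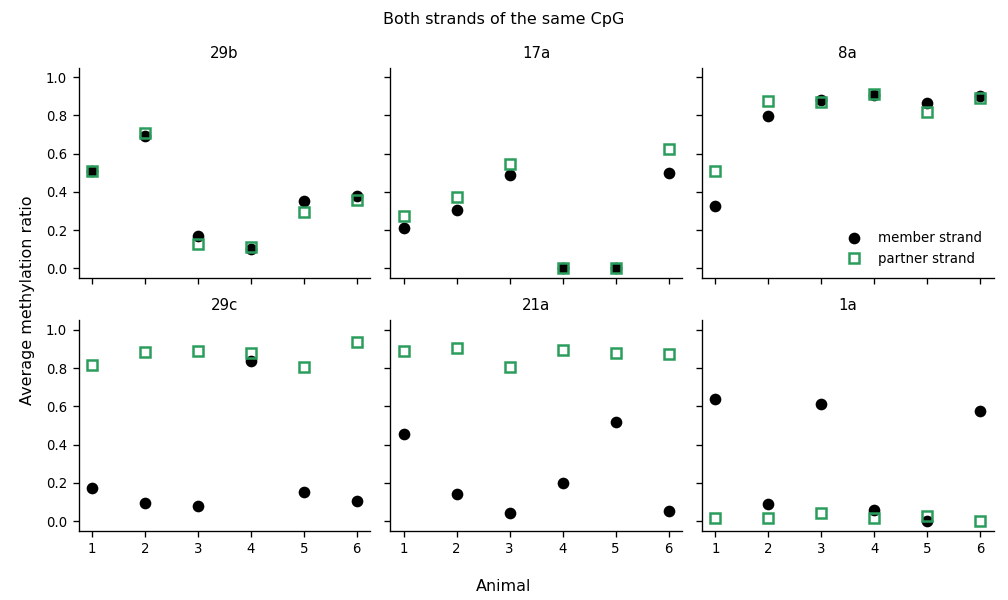
Average methylation ratio (vertical axis) of each animal (horizontal axis) on the strand of the member (filled circles) and on the other strand of the same CpG (open squares), at 6 positions picked for close agreement (29b, 17a, 8a) or for a difference on 1 strand only (29c, 21a, 1a). At 29c and 21a the squares stay at or above 0.805 while the circles reach down to 0.0800 and 0.0450.

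The CpGs around the members did not, in the main, share their spread. All 24 members had other positions on the same strand within 50 bp, 88 in total counted from each member. Of these, 5 had an SD of 0.20 or more and 59 an SD under 0.10, with a median of 0.0767. At 7 members all same-strand neighbours had an SD under 0.10. The plainest case was 29c. Its 9 same-strand neighbours, which lie on much the same reads, averaged 0.65 or more in every animal, so in 5 animals 29c was a single low position within a methylated stretch. At 25a, in contrast, the same-strand neighbours averaged 0.0520 over all animals. Animal 5 was raised at these neighbours too, at 0.0750 to 0.320, so its level at 25a (0.305) was not a matter of that position alone.

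The order of the animals was nevertheless partly shared with close neighbours under the read minimum of the rule, those with 5 to 9 reads in at least 1 culture. At 40 such positions, near 16 members, the median correlation across animals with the member was 0.491, with 29 of 40 above 0 (exact permutation test over the 720 orders, two-sided, p = 0.00139, the smallest these orders allow). With the neighbours of a member averaged, it was 0.542 over 16 members, with 13 above 0 (exact permutation p = 0.00139). It was 0.456 without animal 6, 0.422 without animal 3 and 0.435 without animal 2. On the opposite strand within 50 bp the median was 0.282 over 20 positions (exact permutation p = 0.0792), and from 51 to 500 bp it was 0.0133 over 51 positions of 9 members (exact permutation p = 0.886). Positions within 50 bp often lie on the same reads and fragments as the member, so their agreement is not that of separate molecules. Some may miss the minimum only by how reads were counted, as at 5c, with a mean of 9.67 reads at a same-strand neighbour and 19.3 at the member. Sampling error that helped to choose a member can thus be shared by its neighbours, and the test does not stand as independent of that choice.

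A locus with several such CpGs was seen on chromosome 27. Members 27a and 27b lay 22 bp apart and were the only cluster at a chaining distance of 100 bp, the other 22 members being alone. Animal 4 was highest at both, with 0.755 and 0.930, and animal 1 lowest, with 0.120 and 0.25. A same-strand neighbour 41 bp from 27a, too shallow for the rule, ran from 0.185 in animal 1 to 0.755 in animal 4. The reads of 27a and 27b were equal in number in 10 of 12 cultures, so the pair is close to 1 observation. Beside 9c, in the same way, the same-strand positions 17 and 8 bp away had an SD of 0.252 and 0.216. Beside 5a, the same-strand position 9 bp away ran from 0.45 to 1.00 with an SD of 0.20. At these 3 loci a spread of 0.20 or more between animals reached beyond a single CpG of the strand.

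Read coverage was a second measure that the rule did not use beyond its minimum, and it also differed between animals at some members. Reads were scaled to the median culture total. At 1a the 3 animals with ratios of 0.575 or more had 107, 115 and 126 scaled reads and the 3 with ratios of 0.0900 or less had 14.9 to 23.1, with no overlap. At 29c animal 4, the only one with a high ratio, had 20 scaled reads and the others 126 to 249. At 8a animal 1, the only one with a low ratio, had 19.9 and the others 102 to 296. The cultures of animal 2 differed there, with 37 unscaled reads and a ratio of 0.73 in 2A, and 225 reads and 0.86 in 2B. Fewer reads thus went with a lower ratio at 1a and 8a and with a higher ratio at 29c.

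At 25a animal 4 had 15.8 scaled reads with a ratio of 0.540, animal 5 had 372 with a ratio of 0.305, and the others had 81.9 to 144 with ratios of 0.0450 or less. The same-strand position 4 bp from 25a had at least 149 reads in every culture, while 25a itself had 16 in 4A and 13 in 4B. At 8b scaled reads ran from 13.1 to 78.0, and here the cultures of animal 6 differed, with 28 reads in 6A and 73 in 6B against 82 in 3A and 67 in 3B. The highest animal thus had at least 4 times the scaled reads of the lowest at 5 members, from 5.97-fold at 8b to 23.6-fold at 25a. This was so at 0.999% of all positions with the required reads and at 4.32% of the 347 variable positions that did not hold within animals. The median young-to-old ratio of scaled reads within an animal at these 5 members was 1.22-fold. A smaller difference was seen at 3b, 7a and 21a, where animals 1 and 5 had the most scaled reads, 50.4 and 56.5 at 3b, 46.8 and 59.5 at 7a, and 42.3 and 26.9 at 21a, against 14.9 to 26.2 in the other animals of these 3 positions. At 29b animals 1 and 2, with the highest ratios (0.510 and 0.695), had 51.6 and 47.3 scaled reads, and the others 93.4 to 140, a fold of 2.96.

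The coverage of same-numbered cultures was compared in a test added after these reads were seen, so it does not stand as an independent test of the pattern. Log2 scaled reads were centred at each member within each age, and young and old cultures were correlated over the 24 members. The mean correlation of same-numbered cultures was 0.668 (0.373 to 0.886), and the median of the other pairs was -0.153 (exact permutation test over the 720 pairings, two-sided, p = 0.00139, the smallest these pairings allow). It was 0.706 without animal 6, 0.689 without animal 3, 0.733 without animal 2 and 0.422 over the 19 members with a fold under 4 (exact permutation p = 0.00278). For 5 of 6 young cultures the best old culture had the same number, the exception being 3A, at 0.592 with 3B and 0.628 with 6B. Over all positions with the required reads the mean was 0.170, with other pairs up to 0.20. The part of copy number, restriction sites or mapping in the coverage was not tested.

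**Figure D5:**
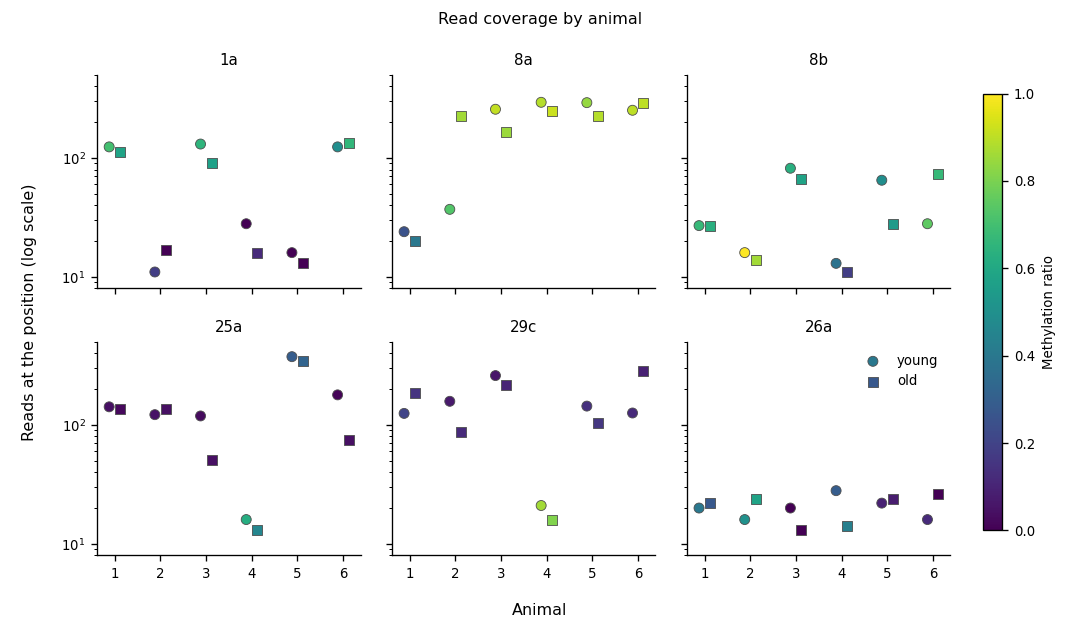
Reads at the position (vertical axis, log scale, unscaled) in the young (circle) and old (square) culture of each animal (horizontal axis), coloured by methylation ratio, at the 5 members with the largest coverage difference between animals and at 26a, which had the smallest. At 1a, 8a and 29c the animals with few reads have a different colour from the others, and 2A has few reads at 8a but a ratio of 0.73.

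To ask whether animals hold such levels without choosing on both ages, positions were chosen on the young cultures alone, with an SD of 0.20 or more among the 6 young ratios and every young ratio within 0.15 of 0, 0.5 or 1. This gave 205 positions at 198 loci, of which 3 were members. Across them, with each age centred at each position, the mean correlation of a young culture with the old culture of the same number was 0.245 (0.115 to 0.376), and the other 30 pairs ran from -0.203 to 0.295 with a median of -0.0381 (exact permutation test over the 720 pairings, two-sided, p = 0.00139, the smallest they allow). All 6 young cultures correlated best with their own old culture. Of the 6 old cultures 5 correlated best with their own young culture, and 6B correlated at 0.295 with 3A and at 0.115 with 6A. Without animal 6 the mean was 0.192, without animal 3 0.167 and without animal 2 0.232 (exact permutation p = 0.00833 for each, the smallest for 5 pairs).

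The levels chosen in young cultures were held only in part. Old ratios lay within 0.20 of the young ratio of the same animal at 60.4% of the chosen values, and of another animal at 53.9% to 57.0%. Where an animal was near 0 when young, the median old ratio was 0.120, and that of other animals 0.140 to 0.15. Near 0.5 the medians were 0.400 and 0.380 to 0.400, and near 1 they were 0.80 and 0.750 to 0.790. Pairing by animal thus showed in the correlations and moved the old levels by at most 0.05.

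The members lay on 13 of 29 autosomes, with 4 on chromosome 5 and 3 each on chromosomes 9 and 29, which hold 3.68%, 3.54% and 2.71% of the positions with the required reads. They were 24 different CpGs, 9 read on the plus strand and 15 on the minus strand (50.2% of positions with the required reads were on the plus strand). Within 3 Mb of the last tested position of their chromosome lay 5 members, among them 5d at 0.246 Mb, and 7.4% of positions did so. These counts are small and are given as description. None (0) of 8574 X-linked positions with 10 reads in every culture met the rule, and with shifted pairs at most 1 did.

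Gene context could be taken only from the authors' annotated list of positions that differed between ages, and no member (0) was in that list. Member 8b lay between intronic listed positions of PTK2B, a focal adhesion-related tyrosine kinase, with the nearest 1.43 kb away. Member 25a was 3.96 kb from a position annotated to RN45S, the precursor of ribosomal RNA, a gene present in many copies. Whether 25a lies in repeated sequence was not tested. Members 5c, 1a and 21b had their nearest annotated listed positions farther off, at 29.2 kb in FAM19A5, 69.1 kb in ABCG1, a cholesterol exporter, and 93.6 kb in SERPINA11. By this rule 0 members lay in the 6 genes the study selected, in 18 imprinted genes or in the bovine major histocompatibility genes. Methylation differs between parental copies in imprinted genes, and major histocompatibility genes vary widely between animals. Only 1 member, 8b, could be placed in any gene this way, so nothing is read from these counts. Whether a member lies in a gene, exon or promoter was otherwise not analysed here.

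No difference between young and old cultures was called at the members, a difference that the rule itself limits. In the paired test of the study's methods on 273681 positions with 10 reads in every culture, 2901 (1.06%) had an unadjusted P below 0.05 and a mean difference of 0.10 or more, and 0 members did. No position (0) passed after Benjamini-Hochberg adjustment, with limma or with the unpaired test either, and the smallest adjusted value of the paired test was 0.308. At an unadjusted P below 0.05 with no minimum difference, the counts were 8716, 10443 for limma and 7633 unpaired. The mean difference, young minus old, ran from -0.050 at 8a to 0.0817 at 21b, with 14 members higher in young and 10 higher in old cultures.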

How the data were processed

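RRBS was analysed in 12 dermal fibroblast cultures of 6 heifers. Libraries were prepared and reads processed at Zymo Research: the submitters' processing notes name Trim Galore 0.3.7, FastQC 0.11.1, Bismark 0.13.1 and bosTau8, uniquely mapped reads were kept, and duplicates and overlapping mates were counted. The authors deposited a methylation ratio per position, strand and culture, the fraction of C among C and T reads given with 2 decimals, and the count of reads behind it, unnormalized, at positions with at least 5 reads in every culture. The list of positions that differed between ages served for gene names only, 1 of which is not reported here, and its columns of fold differences and p-values were not used. No reference genome of bosTau8 was used, so no sequence is printed.

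Columns carry the animal number and a letter; A was taken as 5 months and B as 16 months from the sign of A minus B in the authors' list of positions more methylated when young. Same-numbered cultures come from 1 heifer, which pairs them. The check of that pairing is the correlation given in the report (mean 0.245 for the same number, median -0.0381 for others); against it, 6B correlated at 0.295 with 3A and 0.115 with 6A, and 2A with 2B at -0.0222 at deeply read positions.

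The animal average is the mean of the young and old ratio, and the SD uses n - 1. Exact permutation tests were two-sided, over 720 pairings or orders (120 with 5 animals). Ages were compared with the paired test of the methods, and limma 3.58.1 with the animal as block as an alternative. Loci were chained at 100 bp, and neighbours were taken within 50 bp. Alternatives were the minimum reads, SD and difference, merged strands, even coverage left out, and each animal left out. Tests were first run on simulated data. The rule, the gene lists and the members were chosen with earlier results of these data known. The naming rule (clusters, largest SD, gene context, threshold) took in most members, so all 24 are given; the members shown for strands and coverage were picked after their values were seen. Each culture is 1 sample per animal and age, so culture and animal effects within an age cannot be told apart. Software was Python 3.11.15, numpy 2.4.6, pandas 2.3.3, scipy 1.17.1, matplotlib 3.10.9 and R 4.3.3.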

Additional observations from a re-analysis of the deposited data

Results flagged for a closer look

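In 3 members a single culture stood so far from the other 5 of its age that the gap exceeded 0.625 of the whole range, Dixon's 95% limit for 6 values, and it did so at both ages in the same animal. At 5d, 4A read 0.17 with the next culture at 0.86, and 4B read 0.25 with the next at 0.85. At 8a, 1A read 0.25 with the next at 0.73, and 1B read 0.40 with the next at 0.85. At 29c, 4A read 0.86 with the next at 0.20, and 4B read 0.81 with the next at 0.16. These were 6 of 50 groups examined. The limit is passed in about 1 in 20 groups of unselected values, a rate that does not apply here, since the rule chose the members for a wide spread between animals and for ages that are alike, so these values are a description and no test. A culture apart at only 1 age was found at 0 members.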

How the results depend on the processing

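The count of 24 members was 2 with at least 20 reads in every culture, 215 with 5 reads, 211 with an SD of 0.15, 5 with an SD of 0.25, 10 with differences up to 0.15, 52 with differences up to 0.25 and 12 with strands merged, and 53 to 90 with an animal left out, since fewer animals must then hold their level. The highest count with shifted pairs, 11, was 1 with 20 reads, 3 with strands merged, 5 without even positions (18 with true pairs) and 22 to 40 with an animal left out. The correlation of same-numbered cultures at positions chosen when young was 0.166 to 0.232 with an animal left out. Without even positions it was 0.223 over 120 positions (exact permutation p = 0.00556), and another pairing reached 0.263. With no condition on levels it was 0.118 over 2739 positions (exact permutation p = 0.00278), and another pairing reached 0.119. The true pairing was thus not the highest in these 2 settings. At 20 reads only 2 positions remained (0.333, exact permutation p = 1.00), so that setting is void. Agreement of the partner strand (0.395) was 0.593 for minus-strand members, 0.520 for both strands and 0.311 to 0.484 with an animal left out, where leaving out animal 2 passed 0.05 (exact permutation p = 0.0417). That of neighbours (0.491) was 0.0133 from 51 to 500 bp, 0.282 on the opposite strand and 0.422 to 0.557 with an animal left out. Coverage (0.668) was 0.622 to 0.733 with an animal left out. The share of averages near a level was 47.9% within 0.10. The cause of these changes was not tested where none is named. No result changed sign.

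For the ages, the 2901 positions of the paired test were 8716 with no minimum difference, 376 with 20 reads and 2956 to 3672 with an animal left out. With no replicate block (unpaired) there were 3296, and 3359 with limma and the animal as block; the block changed no other call. Depth limits most members: at 20 reads, above the lowest culture of 22 of the 24, the binomial SD of 1 ratio of 0.5 is 0.112. This takes every read as an independent molecule.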
